A study of Arabidopsis thaliana with 8 samples.

Results

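The 4 ferritin genes FER1 to FER4 and the 4 nicotianamine synthase genes NAS1 to NAS4 of Arabidopsis were followed across 4 genotypes. They were taken by locus from a table of 32548 genes, and all 8 passed the filter on low values that left 25459 genes for testing. RNA had been sequenced from 12-day-old seedlings raised on MS (Murashige and Skoog) plates at 22 °C in a 16 h day, with 2 libraries per genotype. Col-0 served as wild type, and the mutants were labelled hag1-/-, ada2b-/- and scs1-/-scs2a-/-, a double mutant (called hag1, ada2b and scs1 scs2a below). The labels name no allele, treatment or pooling. SAGA is a coactivator complex in which HAG1 acetylates histones with ADA2B as its adaptor, and the series asks which features of that complex plants share with other organisms. SCS1 and SCS2A themselves are not analysed here, so the label of the double mutant was not checked against its targeted genes. All pairs of genotypes were compared, and the 3 comparisons with wild type use the same 2 wild type libraries.

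Ferritins are shells of many subunits that store iron in a form that does not react with oxygen, and plant ferritins sit mainly in plastids. FER1, FER3 and FER4 are the ferritins of leaves and roots, whereas FER2 is known as the seed ferritin. Nicotianamine synthases join molecules of S-adenosylmethionine into nicotianamine, a small chelator that keeps iron, zinc and copper soluble while they move between cells and along the phloem. FER1 transcripts are known to rise when iron is plentiful and when phosphate is scarce, and NAS4 is a known target of PYE, a bHLH regulator of the iron deficiency response.

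In the TAIR10.1 annotation of RefSeq each ferritin gene has 8 exons and each nicotianamine synthase gene a single exon. FER1 (AT5G01600) lies at chr5:227953-230051 on the reverse strand, FER2 (AT3G11050) at chr3:3463477-3465506 on the forward strand, FER3 (AT3G56090) at chr3:20813904-20816035 and FER4 (AT2G40300) at chr2:16831109-16833294, both on the reverse strand. NAS1 (AT5G04950) lies at chr5:1457641-1459039 and NAS2 (AT5G56080) at chr5:22711141-22712441, both on the reverse strand, NAS3 (AT1G09240) at chr1:2984829-2986231 and NAS4 (AT1G56430) at chr1:21136835-21138277, both on the forward strand. Within each family a pair stood closest in coding sequence. FER3 and FER4 were identical at 78.4% of aligned bases, and the other ferritin pairs at 67.7 to 71.8%. NAS1 and NAS2 were identical at 83.6%, NAS3 and NAS4 at 80.1%, and the other synthase pairs at 69.1 to 70.4%.

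The closeness of NAS1 and NAS2 bears on the measurement, because reads were only 50 bases long. The first 60 coding bases of both are shown, with capitals in NAS2 at the 5 bases that differ from NAS1.
NAS1: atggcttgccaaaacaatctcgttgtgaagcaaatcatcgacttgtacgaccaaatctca
NAS2: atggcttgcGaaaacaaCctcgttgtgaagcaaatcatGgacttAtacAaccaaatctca
The longest run that the 2 coding sequences share without a difference is 49 bases, a single base short of a read.
Shared run: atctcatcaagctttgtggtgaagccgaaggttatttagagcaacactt
No stretch of 50 bases from the exons of NAS1 (of 1350) or NAS2 (of 1252) was found elsewhere in the genome or its annotated transcripts. Of the other members, FER2 and NAS3 had 2 such stretches each, of 1099 and 1354, and FER1, FER3, FER4 and NAS4 had 0.

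Some members overlap a neighbouring gene, and the sources used here do not give whether reads were counted by strand. FER1 lies over the antisense lncRNA AT5G01595, which shares 0 exon bases with it and stood at 23.9 to 37.5 normalised counts in the 8 libraries. FER4 shares 118 of its 1252 exon bases with AT2G40290, a gene on the same strand. AT2G40290 was itself higher, with log2 fold changes of 0.26 ± 0.07 in hag1 and 0.27 ± 0.07 in ada2b (limma adjusted p = 0.0182 and 0.0138), so the value of FER4 is uncertain to the extent that such reads were assigned to it. FER2 shares 8 bases with AT3G11040, which did not pass in any mutant.

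The 250 bases upstream of each start were searched on both strands for letters known from iron, zinc, phosphate and clock control. The G-box CACGTG, a motif bound by many bHLH proteins, occurred in FER3 and FER4 and in 6.49% of 27444 annotated promoters of that length. It began 76 bases upstream of the FER3 start and 69 bases upstream of the FER4 start, and 60 bases around it are shown 5′ to 3′ along the gene with the motif in capitals. They are chr3:20816079-20816138 and chr2:16833331-16833390, both on the reverse strand of TAIR10.1.
FER3: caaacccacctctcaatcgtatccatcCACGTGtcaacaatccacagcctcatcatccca
FER4: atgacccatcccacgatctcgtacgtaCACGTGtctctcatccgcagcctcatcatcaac
The phosphate motif P1BS, searched as GNATATNC, was in 5.46% of promoters and in 0 of the 8 windows. The evening element AAAATATCT was in 2.36% of promoters and in the FER3 window. The zinc deficiency response element was in 0.0802% of promoters and in 0 of the 8 windows. A missing match says only that these letters are not in this window.

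Libraries summed to 20571000 to 22344700 normalised counts, which depend on the scaling and do not measure depth. Reads estimated from the steps between low values numbered 20527192 to 22047456 per library. The targeted gene HAG1 stood at 296 and 328 normalised counts in wild type and at 131 and 133 in hag1 (log2 fold change -1.23 ± 0.09, limma adjusted p = 2.92e-05). ADA2B stood at 708 and 712 in wild type and at 567 and 613 in ada2b (-0.27 ± 0.07, limma adjusted p = 0.0136), a weak check of those labels. All 17 green tissue markers and all 21 root markers had a mean above 1 in every genotype, and seed markers were near 0. Libraries of a genotype differed by 3.97 to 5.91 times the counting variance, and none was treated as a duplicate. No label says that they were grown separately, and the p-values rest on a spread between samples that may be technical.

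In hag1, FER1, FER2, FER4 and NAS3 rose, NAS1, NAS2 and NAS4 fell, and FER3 did not pass. Thus 7 of the 8 genes were called, 4 higher and 3 lower, where 44.3% of all tested genes were called, 21.3% higher and 23% lower. In ada2b, FER1, FER2 and NAS3 rose and NAS1 and NAS2 fell, so that 5 were called beside 48.1% of all genes (24.7% higher and 23.4% lower). In scs1 scs2a, FER1, FER2 and NAS3 rose, so that 3 were called beside 19.9% of all genes (7.86% higher and 12.1% lower). By limma 0 of the 8 fell there, and NAS4 was lower at an unadjusted p under 0.05. Calls are at a limma adjusted p under 0.05 over all genes. Both mutant libraries lay beyond both wild type libraries for 7, 7 and 6 of the 8 genes, while this held for 72.8, 76.3 and 63.2% of all genes. A share of calls near that of all genes is no result about these genes as a group. In bulk RNA of seedlings, fewer cells of a type and less RNA per cell cannot be told apart.

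**Figure D1:**
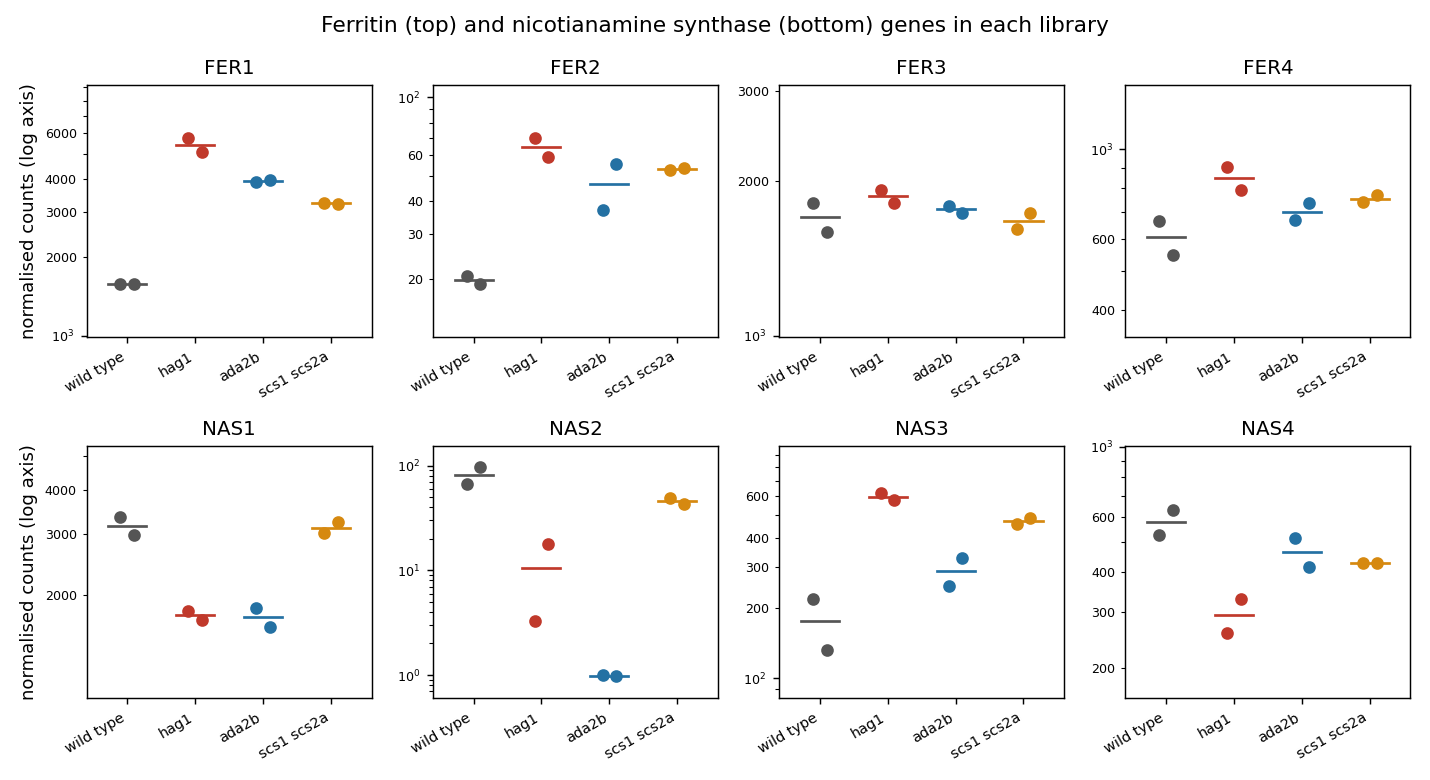
Normalised counts of the 4 ferritin genes (top) and the 4 nicotianamine synthase genes (bottom) in each library, on a log axis whose range differs between panels; points are libraries and bars the mean of the 2 libraries of a genotype. FER1 is above its wild type level of 1585 and 1584 in all 6 mutant libraries, and NAS2 is at 1.001 and 0.971 in ada2b.

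FER1, an iron-responsive ferritin of leaves, rose in all 3 mutants. It stood at 1585 and 1584 normalised counts in wild type, 3909 and 3951 in ada2b, 5745 and 5072 in hag1, and 3239 and 3215 in scs1 scs2a. The groups did not overlap, and the order from wild type to scs1 scs2a, ada2b and hag1 held in every library. The log2 fold change was 1.77 ± 0.06 in hag1 (limma adjusted p = 2.89e-06), which is 3.41-fold. The ada2b value was 1.31 ± 0.06 (2.48-fold, limma adjusted p = 2.87e-06). In scs1 scs2a it was 1.03 ± 0.06 (2.04-fold, limma adjusted p = 0.000144). Here and below, fold changes were computed from log2(value + 1) and carry their SE, with n = 2 libraries per genotype. These calls held under every scaling, filter, pseudocount and left-out library tried. The overlapping antisense lncRNA of FER1 did not pass in any mutant (log2 fold changes 0.38, 0.23 and -0.0032 ± 0.24).

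FER2, the seed ferritin, was scarce but also rose in all 3 mutants. It stood at 20.6 and 19.2 normalised counts in wild type, 37.0 and 55.6 in ada2b, 69.8 and 58.8 in hag1, and 52.7 and 53.3 in scs1 scs2a. Every mutant library was above both wild type libraries, and the ada2b libraries lay further apart than those of the other genotypes. The log2 fold changes in hag1, ada2b and scs1 scs2a were 1.64, 1.15 and 1.37, each ± 0.24 (limma adjusted p = 0.000747, 0.00446 and 0.00606). The call in scs1 scs2a was lost without scs1 scs2a replicate 2 (limma adjusted p = 0.0507). Transcripts of seed storage and oil body proteins were near 0, and the 11 seed markers summed to 4.41 to 7.43 in wild type, 1.94 to 10.01 in ada2b, 2.09 to 2.95 in hag1 and 0 to 20.3 in scs1 scs2a. Of the 5 seed markers that could be tested, 0 were called in any mutant by limma, and 0 had an unadjusted p under 0.05.

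FER3, a plastid ferritin, did not pass in any mutant. It stood at 1815 and 1591 normalised counts in wild type, 1794 and 1735.2 in ada2b, 1927 and 1812 in hag1, and 1615 and 1736 in scs1 scs2a. Each mutant's values overlapped the wild type range. The log2 fold changes in hag1, ada2b and scs1 scs2a were 0.14, 0.05 and -0.02, with 95% intervals of -0.03 to 0.30, -0.11 to 0.22 and -0.19 to 0.14. With upper-quartile scaling the last pair changed sign, to -0.0033 and 0.0015. In hag1 the gene passed once wild type replicate 1 was left out (0.23, limma adjusted p = 0.0444).

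FER4, the closest relative of FER3, rose in hag1 and did not pass in the other mutants. It stood at 663 and 548 normalised counts in wild type, 666 and 735 in ada2b, 901 and 792 in hag1, and 738 and 769.8 in scs1 scs2a. All 6 mutant libraries were above both wild type libraries, in ada2b by little. The log2 fold change was 0.49 ± 0.10 in hag1 (1.40-fold, limma adjusted p = 0.00529). It was 0.21 ± 0.10 in ada2b (95% interval -0.02 to 0.45, limma adjusted p = 0.119) and 0.32 ± 0.10 in scs1 scs2a (0.09 to 0.56, limma adjusted p = 0.0609). FER4 did not pass in the direct comparisons with hag1 either (limma adjusted p = 0.0633 for ada2b and 0.267 for scs1 scs2a), so its changes were not shown to differ between mutants. Without wild type replicate 1 the gene passed in ada2b (0.0277) and in scs1 scs2a (0.0291), and in scs1 scs2a it also passed with upper-quartile scaling (0.0472) or a minimum value of 10 (0.0365). The direct comparison of ada2b with hag1 passed with median-of-ratios or upper-quartile scaling (0.0393 and 0.0370), a minimum value of 10 (0.0413), a fit of only the 2 groups (0.0425) and without either wild type library (0.0311 and 0.0305).

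Per kilobase of exon, FER3 was the most abundant ferritin of wild type and FER1 the most abundant in every mutant. FER1 made up 36.2 to 39.6% of the ferritin sum in the wild type libraries, 58.2 to 58.3% in ada2b, 62.9 to 63.9% in hag1 and 52.8 to 54.5% in scs1 scs2a. FER3 went from 44.3 to 46.1% in wild type to 23.8 to 25.0% in hag1, and FER2 stayed at or below 1.098% in every library. The ferritin sum was 2950 ± 191 normalised counts per kilobase in wild type, 4747 ± 39.1 in ada2b, 6002 ± 467 in hag1 and 4231 ± 73.0 in scs1 scs2a (mean ± SD, n = 2). It was above wild type in all 6 mutant libraries. An exact two-sided permutation test of 2 against 2 libraries cannot go below p = 0.333, the value reached in each mutant.

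NAS1, the most abundant nicotianamine synthase, fell in hag1 and ada2b. It stood at 3355 and 2986 normalised counts in wild type, 1836 and 1629 in ada2b, 1805 and 1702 in hag1, and 3019 and 3236 in scs1 scs2a. The hag1 and ada2b libraries overlapped each other and lay below all others, whereas the scs1 scs2a values lay within the wild type range. The log2 fold changes were -0.85 ± 0.08 in hag1 (limma adjusted p = 8.05e-05) and -0.87 ± 0.08 in ada2b (limma adjusted p = 6.62e-05). In scs1 scs2a it was -0.02 ± 0.08, with a 95% interval of -0.20 to 0.16, and its sign turned with upper-quartile scaling (0.0047). The double mutant differed from hag1 by 0.83 ± 0.08 and from ada2b by 0.85 ± 0.08 (both limma adjusted p = 0.00026). Between ada2b and hag1 the difference was -0.02 ± 0.08, with an interval of -0.20 to 0.16.

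NAS2, known mainly from roots, fell in hag1 and ada2b, in ada2b to about 1 read per library. It stood at 66.8 and 96.7 normalised counts in wild type, 1.001 and 0.971 in ada2b, 3.25 and 17.7 in hag1, and 48.9 and 42.8 in scs1 scs2a. The 4 genotypes did not overlap, and the ada2b values correspond to an estimated 1 read per library beside 61 and 91 in wild type. The log2 fold change was -5.36 ± 0.60 in ada2b (limma adjusted p = 0.000187) and -3.19 ± 0.60 in hag1 (limma adjusted p = 0.00275). At this level the size depends on the pseudocount: in ada2b it was -3.84 with a pseudocount of 5 and -6.21 with 0.1, and the call held with both (0.000175 and 0.000328). Summed over libraries, the estimated reads gave a ratio to wild type of 0.0124 in ada2b, with an exact 95% interval of 0.00149 to 0.0457 that covers counting error only. The ratio was 0.133 in hag1 (0.0803 to 0.211). The hag1 libraries lay far apart, and the log2 fold change was -2.12 without hag1 replicate 1 and -4.26 without hag1 replicate 2.

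In scs1 scs2a the change of NAS2 did not pass (-0.80 ± 0.60, 95% interval -2.16 to 0.56, limma adjusted p = 0.388). Its estimated reads, 51 and 45, gave a ratio to wild type of 0.600 with a counting interval of 0.460 to 0.780, which does not include the spread between libraries. NAS2 in ada2b was lower than in hag1 by limma (-2.17 ± 0.60, adjusted p = 0.0184) and scs1 scs2a stood above both other mutants, by 2.39 ± 0.60 over hag1 (0.0176) and by 4.56 ± 0.60 over ada2b (0.00123). The difference between ada2b and hag1 was lost without hag1 replicate 2 (-1.098, 0.0539), without either ada2b library (0.0685 and 0.0697) and with no filter on low values (0.101), and was -3.24 without hag1 replicate 1. That between scs1 scs2a and hag1 was lost without either scs1 scs2a library (0.0942 and 0.0727) and with no filter (0.102), and was 1.32 and 3.46 without hag1 replicates 1 and 2. The difference from ada2b to scs1 scs2a held in all 16 alternatives. For NAS1, 83.6% identical in coding sequence, the 95% interval in ada2b was -1.05 to -0.69, and for NAS2, with a pseudocount of 1, it was -6.72 to -4.00.

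Root markers were set beside NAS2. Summed without PYK10, a myrosinase that alone dominates the list, the root markers stood at 5501 to 5792 normalised counts in wild type, 4153 to 4415 in ada2b, 3761 to 4908 in hag1 and 5522 to 5571 in scs1 scs2a. PHO1 was the largest part of the wild type sum, at 1890 and 2003. These sums thus do not stand for the list as a whole. With PYK10 the sums were 48052 to 49306 in wild type, 52555 to 55224 in ada2b, 67340 to 87357 in hag1 and 59963 to 60680 in scs1 scs2a. Among the 21 root markers, limma called 5 in hag1 (2 higher, 3 lower, median 0.16), 7 in ada2b (2 higher, 5 lower, median 0.10) and 6 in scs1 scs2a (2 higher, 4 lower, median 0.29). Over all genes 44.3, 48.1 and 19.9% were called, so the counts in hag1 and ada2b are below the background and are no result about root markers. PHO1 and HKT1, transporters of the root stele, fell in all 3 mutants, thus also in scs1 scs2a, where NAS2 did not pass (PHO1 -0.44 ± 0.06, HKT1 -1.04 ± 0.20, limma adjusted p = 0.0028 and 0.00949). PHO1 went from 1890 and 2003 to 859 and 814 in ada2b, and HKT1 from 172 and 173 to 22.0 and 26.3. Other root markers went the other way. EXPA18 rose in scs1 scs2a (1.06 ± 0.27, limma adjusted p = 0.0272), and PYK10 stood at 82448 and 63579 in hag1 beside 43806 and 42260 in wild type. PHO1 and HKT1 thus do not stand for the list, and the part of root markers in the fall of NAS2 was not tested.

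NAS3, known mainly from shoots, rose in all 3 mutants. It stood at 218 and 132 normalised counts in wild type, 249 and 326 in ada2b, 618 and 578 in hag1, and 456 and 483 in scs1 scs2a. The 4 genotypes did not overlap, in the order wild type, ada2b, scs1 scs2a and hag1. The log2 fold changes were 1.81 ± 0.21 in hag1 (3.51-fold, limma adjusted p = 0.00025), 1.46 ± 0.21 in scs1 scs2a (2.75-fold, 0.003) and 0.74 ± 0.21 in ada2b (1.68-fold, 0.0195). The call in ada2b rested on few libraries: the value was 0.38 without wild type replicate 2 (0.0801) and 0.55 without ada2b replicate 2 (0.128), and 1.105 without wild type replicate 1. It was also lost with no filter on low values (0.111) and in a fit of only the 2 groups (0.0661). NAS3 in ada2b was lower than in hag1 (-1.07 ± 0.21, limma adjusted p = 0.00439), and the step from hag1 to scs1 scs2a did not pass (-0.35 ± 0.21, interval -0.84 to 0.14), though it did in a fit of only those 2 groups (0.0175).

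NAS4, the known target of PYE, fell in hag1. It stood at 526 and 629 normalised counts in wild type, 513 and 417 in ada2b, 257 and 329 in hag1, and 429 and 427 in scs1 scs2a. All 6 mutant libraries were below both wild type libraries, and the hag1 libraries were the lowest. The log2 fold change was -0.98 ± 0.14 in hag1 (limma adjusted p = 0.000744). It was -0.31 ± 0.14 in ada2b (95% interval -0.64 to 0.01, limma adjusted p = 0.101) and -0.43 ± 0.14 in scs1 scs2a (-0.75 to -0.10, limma adjusted p = 0.0708). The scs1 scs2a value passed with a minimum value of 10 (0.0402), in a fit of only the 2 groups (0.0353) and without either hag1 library (0.0474 and 0.0471). NAS4 was higher in ada2b than in hag1 by 0.67 ± 0.14 (0.00598) and in scs1 scs2a than in hag1 by 0.56 ± 0.14 (0.0198). The latter call was lost without hag1 replicate 1 (0.111) and without either scs1 scs2a library (0.0929 and 0.0852). With no filter on low values neither difference passed (0.0517 and 0.105).

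**Figure D2:**
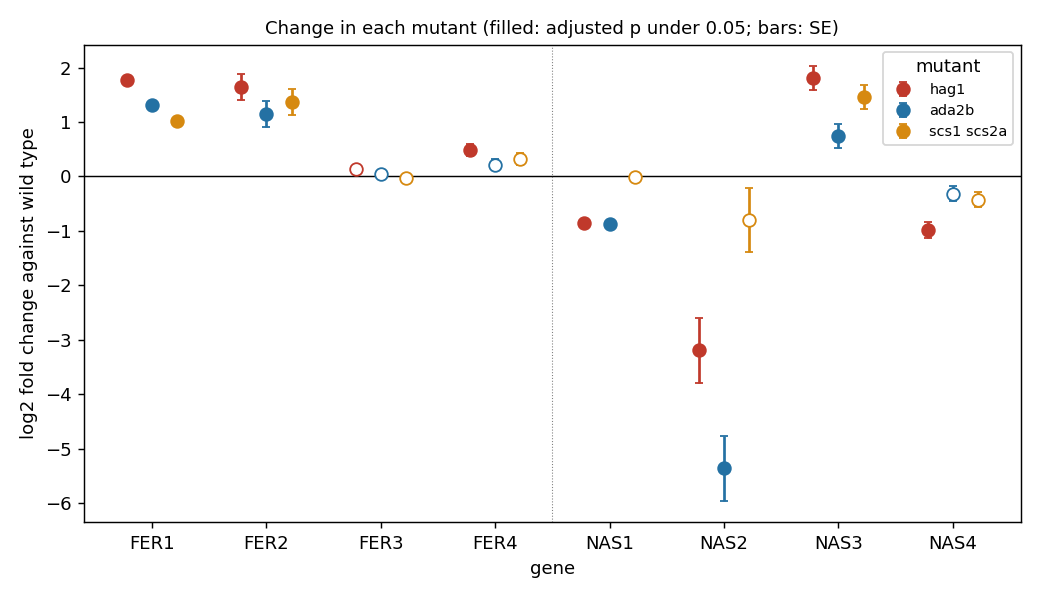
Log2 fold change of each gene against wild type on the log2(value + 1) scale, with SE bars from the limma model and filled points for an adjusted p under 0.05. FER1, FER2 and NAS3 are above 0 in all 3 mutants, NAS1 and NAS2 are filled below 0 in hag1 and ada2b, and FER3 is open in each mutant.

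The nicotianamine synthase sum per kilobase of exon was 2854 ± 163 normalised counts in wild type, 1766 ± 112 in ada2b, 1891 ± 29.3 in hag1 and 2902 ± 119 in scs1 scs2a (mean ± SD, n = 2). All hag1 and ada2b libraries were below both wild type libraries, with an exact two-sided permutation p of 0.333, the smallest that 2 against 2 allows. The scs1 scs2a libraries overlapped wild type, with an exact p of 0.667. NAS1 made up 77.9 to 80.8% of the sum in wild type, 69.0 to 71.1% in ada2b, 65.1 to 67.5% in hag1 and 76.6 to 77.5% in scs1 scs2a. NAS3 took 3.44 to 5.24% in wild type, 9.62 to 13.8% in ada2b, 22.0 to 23.1% in hag1 and 11.5% in both scs1 scs2a libraries. NAS3 was thus the second most abundant synthase per kilobase in both libraries of hag1, at 426 ± 20.1 beside 203 ± 35.1 for NAS4, and of scs1 scs2a, at 335 ± 13.7 beside 297 ± 1.17, whereas in wild type NAS4 stood at 400.1 ± 50.5 and NAS3 at 125 ± 43.5.

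**Figure D3:**
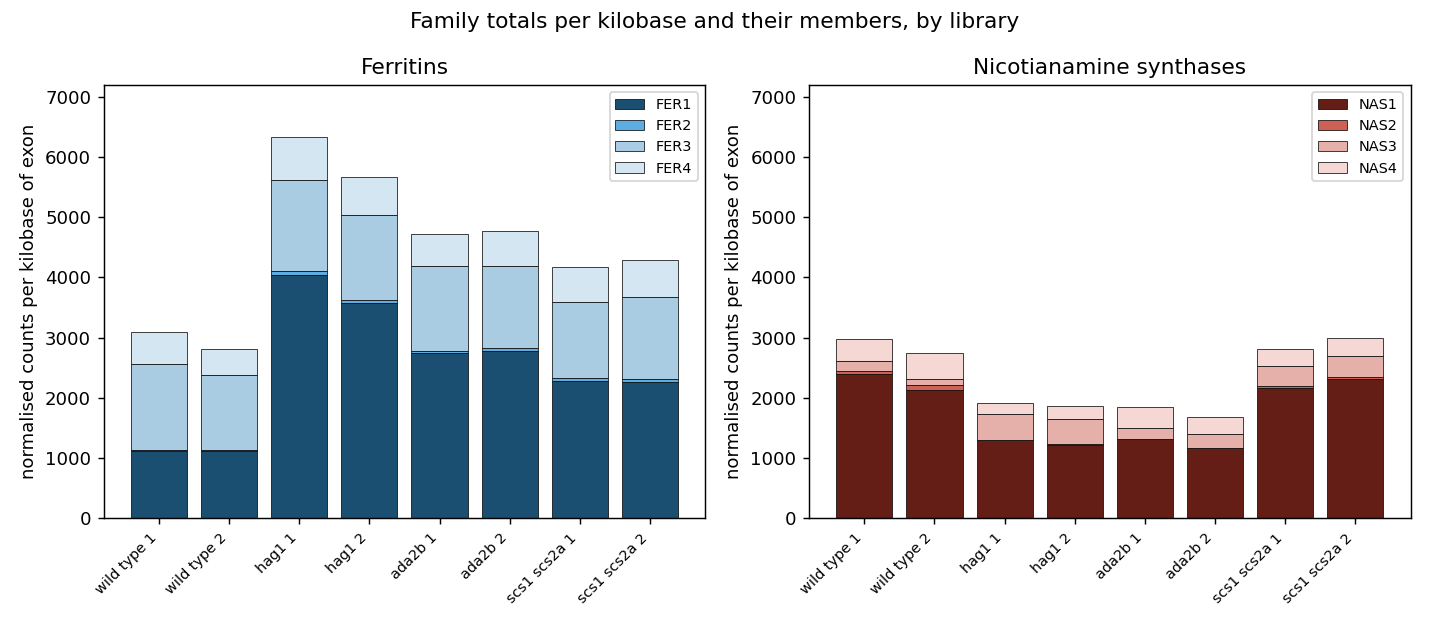
Normalised counts per kilobase of exon, stacked by gene, for the ferritins (left) and the nicotianamine synthases (right) in each of the 8 libraries. The FER1 segment accounts for most of the taller ferritin bars of the mutants, and the synthase bars are lower in hag1 and ada2b, at 1891 and 1766 on average beside 2854 in wild type.

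Compared directly, the mutants differed in 4 of the 8 genes in each pair. Between ada2b and hag1, FER1, NAS2 and NAS3 were lower and NAS4 higher in ada2b, beside 42.8% of all genes called (21.6% higher and 21.2% lower). Between scs1 scs2a and hag1, FER1 was lower and NAS1, NAS2 and NAS4 higher in the double mutant, beside 30.1% of all genes (15.2% higher and 14.9% lower). Between scs1 scs2a and ada2b, FER1 was lower and NAS1, NAS2 and NAS3 higher in the double mutant, beside 29.7% of all genes (14.8% higher and 14.9% lower). FER1 differed by -0.46 ± 0.06 from hag1 to ada2b (limma adjusted p = 0.000597), by -0.74 ± 0.06 from hag1 to scs1 scs2a (0.000142) and by -0.28 ± 0.06 from ada2b to scs1 scs2a (0.0106). The last call was lost without ada2b replicate 2 (0.0566) or either scs1 scs2a library (0.0529 and 0.0572). The rise of NAS3 from ada2b to scs1 scs2a (0.72 ± 0.21, limma adjusted p = 0.0355) was lost in 6 of 16 alternatives, among them without ada2b replicate 1 (0.189), without either hag1 library (0.0533 and 0.0523) and without either scs1 scs2a library (0.114 and 0.149). Without scs1 scs2a replicate 1 or replicate 2, each comparison of scs1 scs2a with another mutant had 2 calls in place of 4. FER2 and FER3 did not pass in any pair, and the 95% interval of the FER2 difference from hag1 to ada2b was -1.03 to 0.06 and that of FER3 -0.25 to 0.08. Groups did not overlap for 7, 8 and 5 of the 8 genes in these pairs, and for 71, 65.9 and 66.5% of all genes.

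By profile over the 8 libraries, the genes most like each member were sought among 7374 named genes with a mean of at least 100. Libraries of a genotype share their plants' genotype, so the 8 points are not independent and r is a description. FER1 was most like UPI, a protease inhibitor gene (r = 0.997), and ERD5, which encodes proline dehydrogenase (r = 0.994). ERD5 went from 1501 and 1517 normalised counts in wild type to 4077 and 4379.6 in ada2b, 7082 and 6262 in hag1, and 3369 and 3013 in scs1 scs2a. FER2 was most like PFK7, a phosphofructokinase (0.989), and SIR, sulfite reductase (0.978). FER3 was most like MNS1 and AAP3 (0.942 and 0.913), with a small range of its own, and FER4 most like Mik and HLECRK (0.976 and 0.966). NAS1 was most like XTH17, a cell wall enzyme (0.984), and the formin FH4 (0.982). NAS2 was most like PEL3 and BCAT3 (0.984 and 0.983), NAS3 like WRKY53, a transcription factor of leaf senescence (0.989), and J2 (0.979), and NAS4 like BB and VRN1 (0.983 and 0.977). A high r takes no account of size. PEL3 went from 2161 and 2509 normalised counts in wild type to 1290 and 1343 in ada2b. Between the same genotypes NAS2 went from 66.8 and 96.7 to 1.001 and 0.971.

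The genes around the ferritins and synthases in iron handling were described by fixed lists, each beside the median log2 fold change of all genes (-0.0022, 0.03 and 0 in hag1, ada2b and scs1 scs2a). The counts of called genes in each list are to be read beside the 44.3, 48.1 and 19.9% of all genes called in those mutants. Of 20 regulators of the iron deficiency response, hag1 had 14 lower and 1 higher (median -1.08), ada2b 6 lower and 2 higher (median -0.26), and scs1 scs2a 7 lower and 1 higher (median -0.18). The 8 of 20 called in ada2b are fewer than the background share of 48.1%. BHLH100, a transcription factor of that response, stood at 250.1 and 358 normalised counts in wild type, 283 and 197 in ada2b, 6.29 and 8.83 in hag1, and 27.6 and 48.8 in scs1 scs2a. It fell in hag1 (-5.15 ± 0.32, limma adjusted p = 1.61e-05) and scs1 scs2a (-2.99 ± 0.32, 0.00102) and had a value of -0.34 in ada2b (0.418). Among the 6 called lower in ada2b were IMA3 (-1.70 ± 0.29, limma adjusted p = 0.00183) and BTSL1 (-1.53 ± 0.16, limma adjusted p = 0.000147). BTS, a ubiquitin ligase that curbs the response, fell in hag1 (-1.12 ± 0.09), scs1 scs2a (-0.93 ± 0.09) and ada2b (-0.41 ± 0.09, limma adjusted p = 0.00667). PYE, a known regulator of NAS4, fell in scs1 scs2a (-0.80 ± 0.12, limma adjusted p = 0.00306). It also fell in hag1 and ada2b (-1.25 and -0.36 ± 0.12, limma adjusted p = 8.36e-05 and 0.0326). The part of PYE in the NAS4 values was not tested.

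Of 9 genes of iron uptake at the root, limma called 2 in hag1, both lower, 3 in ada2b, of which 2 were higher, and 3 in scs1 scs2a, all higher, with medians of -0.05, -0.14 and 0.93. The counts in hag1 and ada2b are below the background shares of 44.3 and 48.1%. IRT1, the main iron importer of roots, stood at 209.8 and 615 normalised counts in wild type, 382 and 277 in ada2b, 183 and 134 in hag1, and 1016 and 1123 in scs1 scs2a. The wild type libraries differed widely in IRT1. They also did in CYP82C4 of the same list (15.4 and 104), but not in AHA2 (17351 and 17399.5). All 3 comparisons use these 2 libraries. IRT1 was called lower in hag1 (-1.19 ± 0.41, limma adjusted p = 0.0456) and higher in scs1 scs2a (1.57 ± 0.41, limma adjusted p = 0.0314).

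Of 11 genes of nicotianamine and long-distance iron transport, hag1 had 5 higher and 3 lower, ada2b 4 and 1, and scs1 scs2a 2 and 2, with medians of 0.17, -0.05 and 0.0038. YSL1, a carrier of metal-nicotianamine complexes that works in leaves, rose in all 3 mutants, with log2 fold changes of 1.07 ± 0.08, 0.46 ± 0.08 and 0.89 ± 0.08 in hag1, ada2b and scs1 scs2a (limma adjusted p = 2.47e-05, 0.00133 and 0.000432). ZIF1, which moves nicotianamine into the vacuole, fell in hag1 (-1.49 ± 0.10), in scs1 scs2a (-0.89 ± 0.10) and in ada2b (-0.37 ± 0.10, limma adjusted p = 0.0157). OPT3, the phloem iron transporter, fell in hag1 and scs1 scs2a (-1.04 ± 0.07 and -0.62 ± 0.07) and had a value of -0.17 in ada2b (limma adjusted p = 0.0832). Among 13 genes of the methionine cycle, which supplies S-adenosylmethionine to the synthases, hag1 had 8 higher and 2 lower, ada2b 11 and scs1 scs2a 7, all higher, with medians of 0.28, 0.32 and 0.21. SAM2, an S-adenosylmethionine synthetase, rose in all 3 mutants, by 0.54 ± 0.05, 0.31 ± 0.05 and 0.37 ± 0.05.

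Of 13 genes of vacuolar, mitochondrial and plastid iron handling, hag1 had 3 higher and 8 lower, ada2b 4 and 5, and scs1 scs2a 3 and 5, with medians of -0.62, -0.0067 and -0.11, beside 44.3, 48.1 and 19.9% of all genes called. NRAMP3, which exports iron from the vacuole, rose in all 3 mutants, by 1.23 ± 0.13 in ada2b, 0.79 ± 0.13 in hag1 and 0.59 ± 0.13 in scs1 scs2a (limma adjusted p = 0.000173, 0.00169 and 0.0178). FPN2, a vacuolar metal transporter, went from 103 and 96.1 normalised counts in wild type to 3.004 and 5.86 in ada2b, 11.5 and 11.8 in hag1, and 48.1 and 30.3 in scs1 scs2a, and fell in each mutant (limma adjusted p = 3.26e-05, 0.000201 and 0.0248). Of 11 plastid proteins that use iron or build iron-sulfur clusters, hag1 had 2 higher and 6 lower, ada2b 7 and 2, and scs1 scs2a 2 and 2, with medians of -0.21, 0.25 and -0.04. FSD1, an iron superoxide dismutase, rose in all 3 by 0.89 ± 0.09, 0.51 ± 0.09 and 0.39 ± 0.09. FSD3, another of that kind, fell in hag1 (-0.51 ± 0.06, limma adjusted p = 0.00039). In ada2b FSD3 was among the 7 called higher, at 1263 and 1270 normalised counts beside 1044 and 1174 in wild type. Its mean was 1109 in wild type, 1267 in ada2b and 1153 in scs1 scs2a. Over the same libraries the green tissue markers fell, 14, 16 and 14 of 17 lower in hag1, ada2b and scs1 scs2a (medians -0.63, -0.60 and -0.54). Their sum was 872348 to 952113 in wild type, 667648 to 675214 in ada2b, 566771 to 598543 in hag1 and 617248 to 683971 in scs1 scs2a, and their part in the ferritin values was not tested.

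Zinc and phosphate genes were set beside the 2 families because nicotianamine binds zinc and FER1 answers to phosphate. Of 9 zinc deficiency genes, hag1 had 4 higher and 1 lower, ada2b 1 and 3, and scs1 scs2a 1 and 1, with medians of -0.12, -0.06 and -0.11. Over all genes 44.3, 48.1 and 19.9% were called, so these counts are near the background and are no result about zinc genes. ZIP5 and IRT3, zinc transporters, rose in hag1 (1.52 ± 0.15 and 1.09 ± 0.08). HMA2, a zinc pump, fell in ada2b (-1.79 ± 0.22) and scs1 scs2a (-0.92 ± 0.22, limma adjusted p = 0.0236) and had a value of -0.44 in hag1 (0.150). ZIP3 fell in ada2b (-1.80 ± 0.22) and hag1 (-0.85 ± 0.22, limma adjusted p = 0.0131) and had a value of -0.33 in scs1 scs2a (0.320). Of 16 phosphate starvation genes, hag1 had 13 called, all higher (median 1.55), ada2b 12 higher and 3 lower (median 0.51), and scs1 scs2a 7 called, all higher (median 0.50). SRG3, a phosphodiesterase of membrane lipid turnover, stood at 1991 and 1816 normalised counts in wild type, 3737 and 4092 in ada2b, 2739 and 3233 in scs1 scs2a, and 7619 in both hag1 libraries. SRG3 and FER1 both stood lowest in wild type and highest in hag1, and the part of phosphate genes in the FER1 values was not tested.

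**Figure D4:**
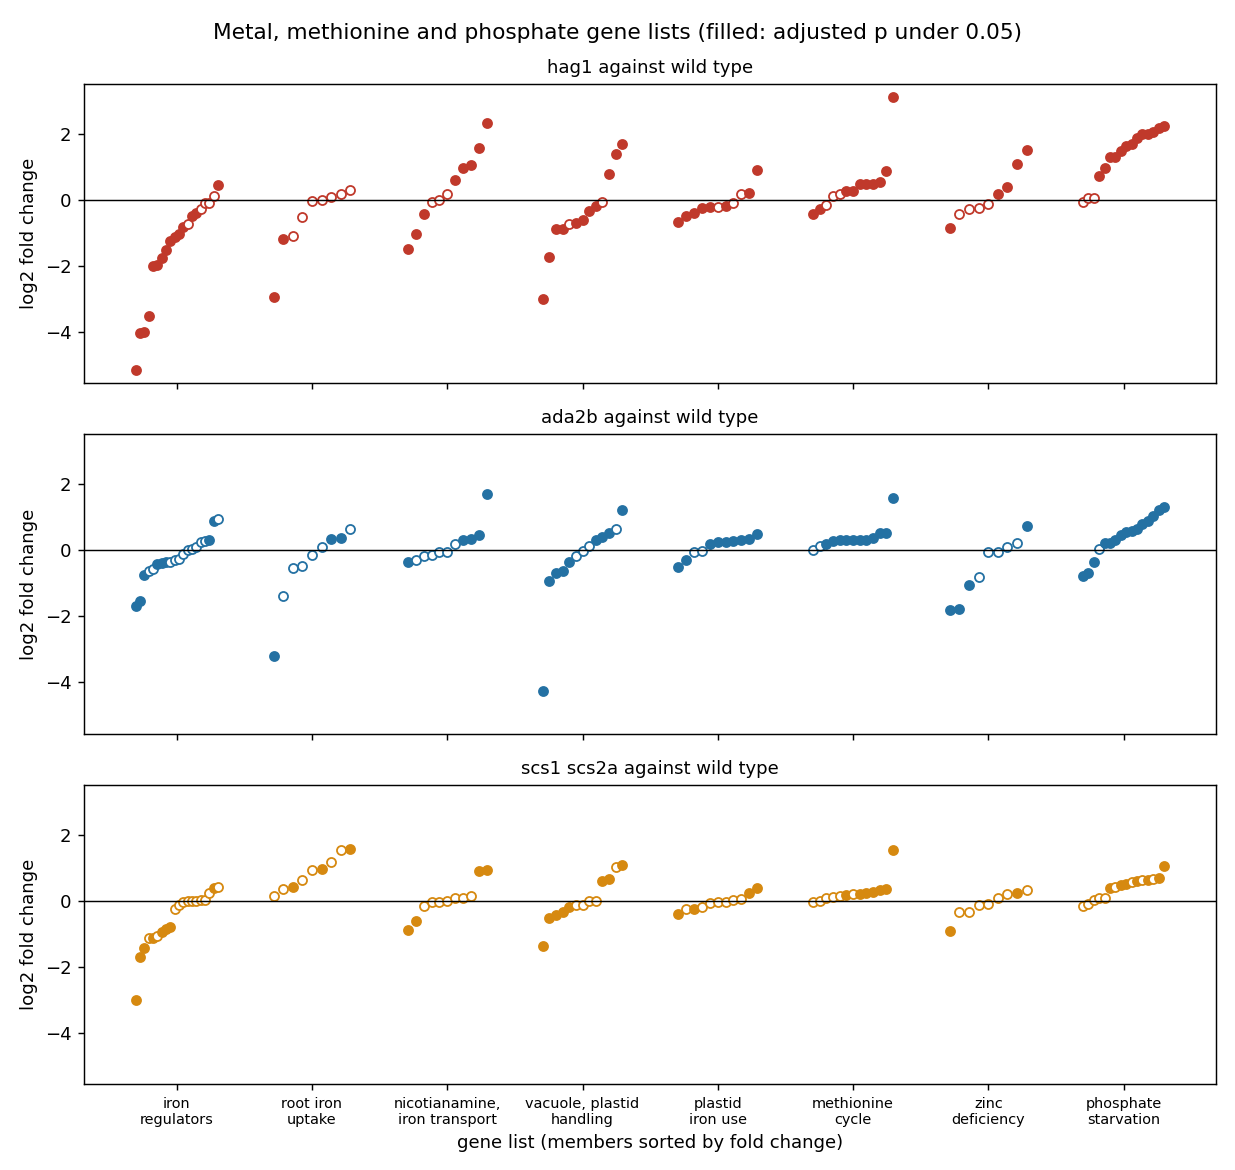
Log2 fold change against wild type of each tested gene in 8 fixed lists, sorted within a list, in hag1 (top), ada2b (middle) and scs1 scs2a (bottom); filled points have a limma adjusted p under 0.05. Regulators of the iron deficiency response lie mostly below 0 in hag1 (14 of 20 called lower), and phosphate starvation genes mostly above 0 (13 of 16 called higher).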

How the data were processed

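The authors deposited a table of normalised counts, a signal with decimals and a column for each library. HISAT2, edgeR and the build TAIR10 are listed without versions in the submitters' processing notes, and the sources used here do not give the counter, annotation or strand setting. Steps between low values put the worth of 1 read at 0.951 to 1.09, with 92.4 to 100% of low values inside 0.1 of a whole count. Low values lay close to these steps but not exactly on them, so whole reads were estimated and not recovered. Thus limma, planned for values other than counts, took the place of a count test. Estimated reads are a value over the worth of 1 read, rounded to a whole number. Intervals on those of NAS2 reflect counting alone.

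Tests used limma (3.58.1, R 4.3.3, trend on mean level) on log2(value + 1). Genes with a value of at least 1 in at least 2 libraries were kept. All 8 libraries entered a single fit on genotype (4 residual and 4.418 prior degrees of freedom), and the 6 comparisons were two-sided contrasts adjusted by Benjamini-Hochberg over all 25459 genes at 0.05. The fit was tested on simulated data, where it was only required to return known fold changes in the median. That check does not bear on the spread between these libraries.

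Every identifier (32548) was found in the TAIR10.1 table, 10804 of them with a symbol. The deposited table holds no coordinates. Those printed, and all sequences, were read by locus from the RefSeq TAIR10.1 genome and annotation. The members and lists were chosen with earlier results of these data known. By the naming rule the text may name all 8 members, HAG1 and ADA2B, from each list and comparison with wild type up to 3 called genes of lowest adjusted p with a mean of at least 10, and the 2 genes most like each member. Values of a gene so named in the other mutants were added after they were seen. Alternatives were other scalings, filters and pseudocounts, a replicate block, fits of only the 2 groups compared, each library left out in turn, and a fold minimum of 2.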

Additional observations from a re-analysis of the deposited data

How the results depend on the processing

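Of 816 values of the 8 genes under an alternative, 748 kept their direction and their side of the threshold, 39 lost a call, 16 gained one and 13 turned their sign. Leaving the fold minimum aside, 13 of the 15 calls against wild type held in all 16 alternatives. The exceptions were NAS3 in ada2b, lost also with no filter (limma adjusted p = 0.111) and with only the 2 groups compared (0.0661), and FER2 in scs1 scs2a. Every value that turned its sign was uncalled. With upper-quartile scaling FER3 turned to -0.0033 in ada2b, 0.0015 in scs1 scs2a and 0.0048 between them, and NAS1 to 0.0047 in scs1 scs2a. With libraries left out FER3 ranged from -0.041 to 0.15 in ada2b and from -0.12 to 0.073 in scs1 scs2a, and NAS1 from -0.10 to 0.066 in scs1 scs2a and from -0.11 to 0.067 between ada2b and hag1. Between scs1 scs2a and ada2b FER2 ranged from -0.067 to 0.51 and NAS4 from -0.26 to 0.036.

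A fold minimum of 2 left 2971, 3584 and 970 genes in hag1, ada2b and scs1 scs2a, from 11279, 12251 and 5079, and 2720, 1655 and 1707 between ada2b and hag1, scs1 scs2a and hag1, and scs1 scs2a and ada2b, from 10900, 7652 and 7567. It left 4 and 3 of the 8 genes in hag1 and ada2b, and 2, 1 and 1 in the mutant pairs. With no filter 2798 genes were called in scs1 scs2a, and 2 of the 8 between ada2b and hag1 and between scs1 scs2a and hag1. With a minimum of 10 in scs1 scs2a 5 of the 8 were called. Leaving out libraries, 1683 to 5161 genes were called in scs1 scs2a, 4339 to 7335 between scs1 scs2a and hag1 and 3974 to 7679 between scs1 scs2a and ada2b, with 2 to 4 of the 8 genes in each; a lone library was assumed to vary like the other groups. The cause was not tested. Scaling moved the median of all genes by at most 0.0656 (log2), but between scs1 scs2a and ada2b the split of 3775 higher and 3792 lower became 4068 and 2684 with median-of-ratios and 4386 and 1931 with upper-quartile scaling.

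Replicate numbers did not pair the samples: deviations of same-numbered libraries correlated at -0.0478 to 0.0552 over 6 pairs of genotypes. With the replicate block 10815, 11823 and 4502 genes were called in hag1, ada2b and scs1 scs2a and 10439, 7132 and 6939 between the mutants, and 7, 5, 3, 4, 4 and 4 of the 8 genes. With 2 libraries per genotype, NAS2 in ada2b, at about 1 read, is limited by depth.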
